A study of Mus musculus with 6 samples.

Results

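Among the new long non-coding RNAs (lncRNAs) assembled from mouse cortex, 302 (3.76% of all records, Wilson 95% confidence interval 3.36 to 4.19) contained an uninterrupted run of at least 15 adenines or at least 15 uridines, and 7738 did not. A run of A was present in 164 records (2.04%, 1.75 to 2.37), a run of U in 141 (1.75%, 1.49 to 2.06) and both in 3. A record is 1 deposited transcript, given by its sequence, the base pairs predicted for it and the folding energy. The 302 records were found by searching each sequence, and they carried 165 A runs and 146 U runs. Most runs lay inside the transcripts. Within 100 nt of the 3′ end lay 7 of the 165 A runs (4.24%) and 8 of the 146 U runs (5.48%). If runs were placed evenly along their own records, 8.23% of A runs and 7.49% of U runs would lie there. Both values are within the intervals of the observed shares. The predicted structures differed between the bases, and 93 of the 165 A runs had no paired base, against 29 of the 146 U runs. Runs of 5 bases also differed, with no paired base in 41.6% for A and 22.6% for U.

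The RNA came from the cortex of adult male wild type mice (C57BL/6 in the sample labels, C57BL/6 J in the methods), sampled around the bleeding areas. In the SAH group, subarachnoid haemorrhage was induced by perforating a cerebral artery from within, and the cortex was taken 24 h later. The control group underwent the operation without perforation and is called normal in the sample labels. The study found blood clots in the SAH mice and none in the controls, so the wording on bleeding areas cannot apply to controls. Each group comprised 3 libraries, and the lysates of 3 mice were pooled for each library. The records pool all 6 libraries and hold no value for any of them, so control and SAH were not compared here, the depth behind a record is unknown, and the tissue could not be checked against marker genes. The study tabulated 20 transcripts picked for their change after SAH, and all were found among the records. Of these, 0 contained such a run, against 3.76% of all records. This count allows a share of up to 15% (3 counts of the total), which includes that of all records. Confidence intervals and such limits cover counting error only. For shares of runs, they count a run carried by several records once for each record. Records are not replicates and some overlap, so the values below are set side by side without a p-value.

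As background, most messenger RNAs and many lncRNAs receive a poly(A) tail at the 3′ end that is absent from the genome. Retrotransposons such as B1 and L1 elements end in an A-rich tail, so that their insertions leave A runs in one orientation and U runs in the other. Poly(A)-binding proteins recognise single-stranded A stretches, and proteins of the ELAV family, TIA1 and hnRNP C recognise U-rich stretches. Adenine forms a standard pair with uridine only, while uridine pairs with adenine and, as a wobble pair, with guanine.

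The longest runs are shown first because they define the set, each with up to 30 bases on both sides and the run in capitals. The first 3 are A runs and the last 3 are U runs. TCONS_00183803 shared its run length with TCONS_00235113 and TCONS_00243169 and was taken by its identifier.
TCONS_00032960: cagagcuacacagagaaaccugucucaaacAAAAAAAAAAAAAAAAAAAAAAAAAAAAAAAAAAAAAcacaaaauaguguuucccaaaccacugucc
TCONS_00149974: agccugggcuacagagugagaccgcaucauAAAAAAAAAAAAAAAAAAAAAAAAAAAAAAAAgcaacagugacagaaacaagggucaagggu
TCONS_00183803: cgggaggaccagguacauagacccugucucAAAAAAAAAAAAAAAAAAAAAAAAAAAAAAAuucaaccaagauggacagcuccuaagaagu
TCONS_00155633: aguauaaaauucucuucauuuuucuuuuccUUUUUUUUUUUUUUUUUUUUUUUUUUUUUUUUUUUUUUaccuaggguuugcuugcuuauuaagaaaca
TCONS_00234733: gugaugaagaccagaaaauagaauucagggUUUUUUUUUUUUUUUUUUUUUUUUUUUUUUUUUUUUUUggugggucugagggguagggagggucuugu
TCONS_00199094: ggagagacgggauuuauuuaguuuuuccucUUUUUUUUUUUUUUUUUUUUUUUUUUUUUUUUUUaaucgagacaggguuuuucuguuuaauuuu

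The A run of TCONS_00032960 had 37 bases, that of TCONS_00149974 had 32 and that of TCONS_00183803 had 31. The U runs of TCONS_00155633 and TCONS_00234733 had 38 bases each, and that of TCONS_00199094 had 34. All 6 lay more than 100 nt from either end. The U run of TCONS_00199094, for example, began after 172 bases and was followed by 168 in a record of 374 nt, whereas the A run of TCONS_00149974 began after 807 bases and was followed by 1381.

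Runs of both bases became rarer with length, though not at every step. From 14 to 15 bases, A runs went from 61 to 50 and U runs from 43 to 53. Median run length was 16 nt for A and for U, and in both the upper quartile was 19 nt. Exactly 15 bases were found in 50 A runs and in 53 U runs, at least 20 bases in 41 A runs and 33 U runs, and at least 30 bases in 6 A runs and 4 U runs. Just outside the limit, 59 records had 14 bases as their longest A run, with a median record length of 1259 nt and a median GC content of 42.5%. The 50 records with an A run of 15 bases had a median length of 1412 nt and a median GC content of 41.2%. For U, 38 records had 14 bases as their longest run (median length 1356 nt, GC 41.2%) and 51 had a run of 15 (1655 nt, 40.9%). Runs of at least 15 C were found in 6 records and of at least 15 G in 9, so A and U made up most of the long runs of a single base.

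**Figure D1:**
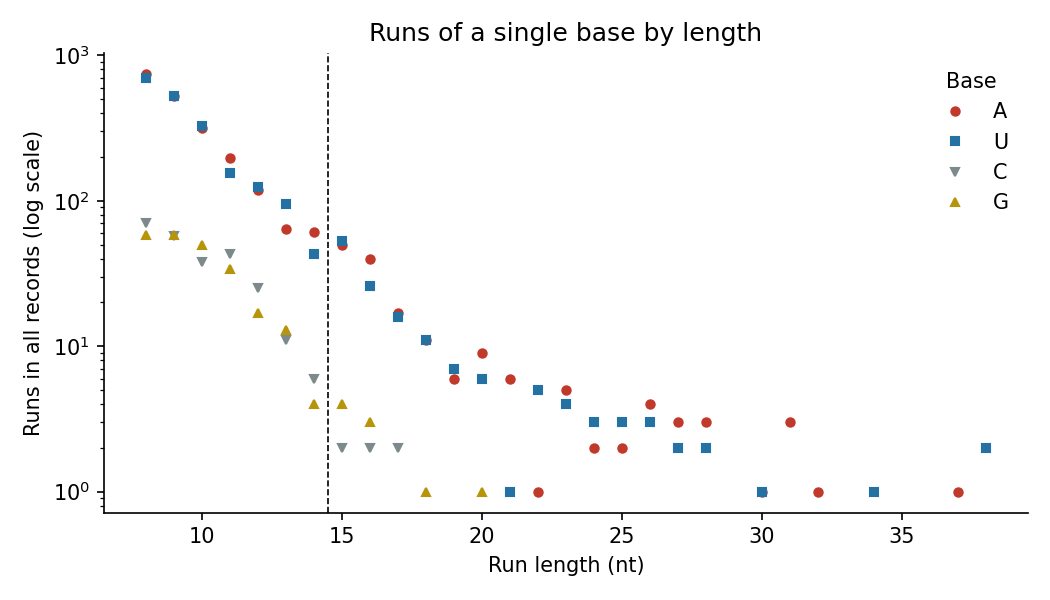
Number of runs of A, U, C and G in all records by run length in nt, on a logarithmic count axis; lengths with no run are not drawn, and the dashed line marks the limit of 15 bases. The A and U points lie close together from 8 to 20 nt, and the longest runs have 37 A and 38 U.

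Of the 302 records, 9 held 2 runs and none held more. The record TCONS_00048196, first by identifier among these 9, held 1 run of each base, as did TCONS_00121259 and TCONS_00149974. In TCONS_00048196 (1025 nt) the U run of 17 bases began after 637 bases and the A run of 17 bases after 830. In TCONS_00121259 (1568 nt) the U run of 15 bases began after 986 and the A run of 16 bases after 1295. In TCONS_00149974 (2220 nt) the order was the opposite, with the A run of 32 bases first and the U run of 19 bases beginning after 1325. The A run of TCONS_00048196 had 1 paired base, as had that of TCONS_00121259, and that of TCONS_00149974 had none. The U runs of the same records had 12, 15 and 9 paired bases.

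Several records carried the same run. When 12 bases on each side were compared on both strands, the 311 runs fell on 287 distinct sites, of which 152 held A runs and 135 held U runs. At 22 of these sites the run was present in 2 or 3 records, its length was the same in each of them at all 22, and 0 sites were seen as an A run in one record and as a U run in another. TCONS_00235113 and TCONS_00243169, for instance, carried the same run of 31 A. An exact stretch of 50 bases on either strand was shared with another record by 78 of the 164 records with an A run (47.6%), by 54 of the 141 with a U run (38.3%) and by 3004 of the 7738 without such a run (38.8%).

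The position of each run was measured as the number of bases between the run and each end of the deposited sequence. That sequence states no strand, so ends and bases are named here and elsewhere as written. In a record written on the opposite strand, the 5′ and 3′ ends would exchange, and so would A and U runs. Whether the records follow the transcribed strand was not tested. For A runs, the median distance was 603 nt from the 5′ end (95% interval of the median from order statistics 521 to 780, n = 165) and 636 nt from the 3′ end (493 to 766). For U runs it was 702.5 nt from the 5′ end (586 to 820, n = 146) and 678 nt from the 3′ end (547 to 822). The centre of the run lay at a median of 50.4% of the record for A (43.5 to 57.6) and 51.4% for U (44.2 to 61.2), and both intervals contain 50%. The nearer end was the 5′ end for 81 A runs and 69 U runs, and the 3′ end for 84 and 77.

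**Figure D2:**
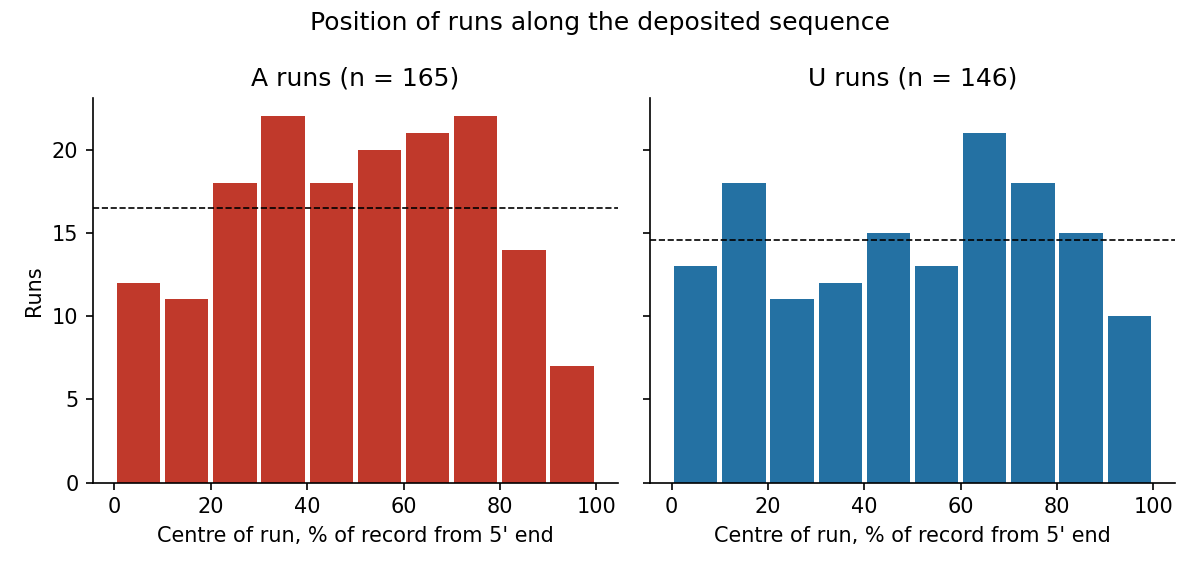
Number of A runs (left) and U runs (right) by the position of the run's centre, as percent of the record counted from the 5′ end in 10 equal bins; the dashed line is an even spread. For A the first and last bin hold 12 and 7 runs against 18 to 22 in the bins between 20% and 80%, and for U the first and last bin hold 13 and 10.

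Few runs lay close to an end. Within 100 nt of the 3′ end there were 7 of the 165 A runs (4.24%, Wilson 95% interval 2.07 to 8.50), and within 100 nt of the 5′ end there were 8 (4.85%, 2.48 to 9.27). If the same runs could lie at every place in their own records with equal weight, 8.23% would fall within 100 nt of a given end. For U runs, 8 of 146 (5.48%, 2.80 to 10.4) were within 100 nt of the 3′ end and 9 (6.16%, 3.28 to 11.3) within 100 nt of the 5′ end, where an even placement gives 7.49%. Each of these 4 intervals contains the value for even placement. With a window of 200 nt, 16 A runs (9.70%, 6.06 to 15.2) were near the 3′ end against 16.4% for even placement, which lies outside that interval, and 18 (10.9%, 7.01 to 16.6) near the 5′ end. The corresponding U runs were 23 (15.8%) and 22 (15.1%) against 14.9%.

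**Figure D3:**
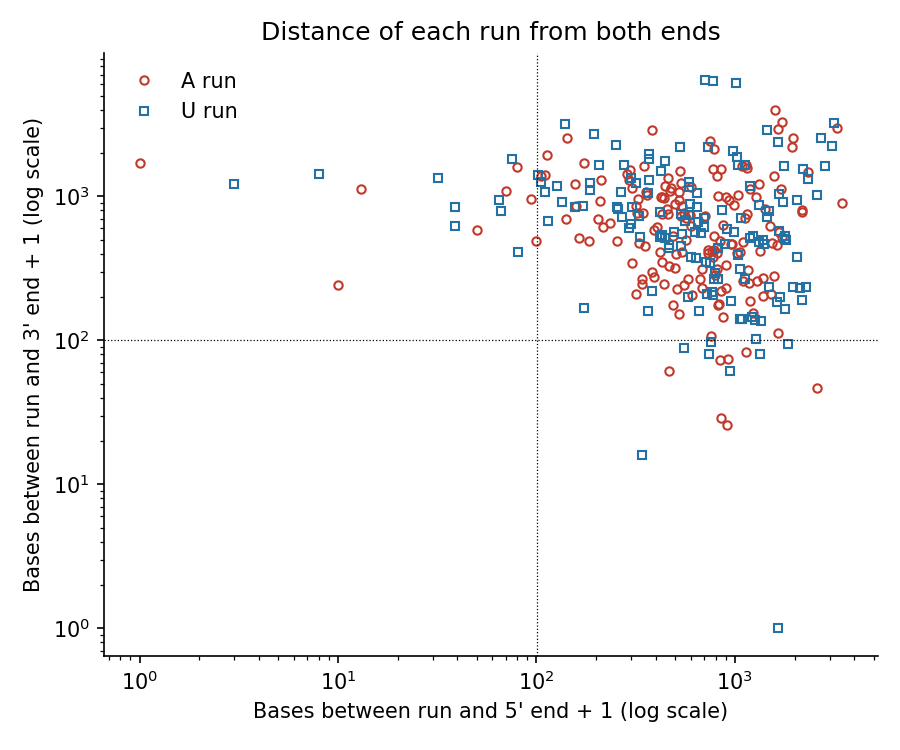
Bases between each run and the 5′ end (horizontal) and the 3′ end (vertical) of its record, plus 1, on logarithmic axes, with 1 point for each of the 165 A runs (circles) and 146 U runs (squares); dotted lines mark 100 nt. Most points lie beyond 100 nt on both axes, 1 A run touches the 5′ end and 1 U run touches the 3′ end.

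An A run that reached the last base was found for 0 of the 165 A runs, which allows a share of up to 1.82% (3 counts of the total). A poly(A) tail is absent from the genome, so a sequence taken from the genome would not show it. This count therefore cannot tell whether the transcripts had tails. The A run nearest to the 3′ end, in TCONS_00142429, was still followed by 25 bases, and the next, in TCONS_00241664 and TCONS_00088206, were followed by 28 and 46. At the 5′ end, TCONS_00138941 opened with a run of 18 A, and the runs of TCONS_00048987 and TCONS_00106085 began after 9 and 12 bases. The opposite arrangement was seen for U, where the last 19 bases of TCONS_00229430 were a run. The U run of TCONS_00153706 was followed by 15 bases, and the second of the U runs of TCONS_00198637, with 16 bases, was followed by 60. Near the 5′ end, U runs began after 2 bases in TCONS_00155448, after 7 in TCONS_00229358 and after 31 in TCONS_00078198. The 3 records below show the A run nearest to the 3′ end and the pair of runs that touched an end, with the run in capitals.
TCONS_00142429: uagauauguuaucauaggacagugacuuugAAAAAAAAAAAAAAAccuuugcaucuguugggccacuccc
TCONS_00138941: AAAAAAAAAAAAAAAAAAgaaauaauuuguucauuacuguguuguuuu
TCONS_00229430: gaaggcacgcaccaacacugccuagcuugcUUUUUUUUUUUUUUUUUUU

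The signal AAUAAA, which directs cleavage and polyadenylation, was searched in the 40 nt before each A run. It was present for 9 of the 165 (5.45%, 2.90 to 10.04), against 3.10% of all windows of 40 nt in all records. Its complement UUUAUU was searched in the 40 nt after each U run and was present for 8 of the 146 (5.48%, 2.80 to 10.4), against 3.11% of all windows. Motifs that overlap a run were not counted, such as the AAUAAA that the run of TCONS_00113430 forms with the AAU before it. A count that includes them was not made. For A runs and for U runs the interval of the motifs counted contains the share of all windows. For A runs it did not do so at a minimum of 12 bases (8.09%, 5.82 to 11.1), with 1 other base allowed inside the run (11.3%, 8.56 to 14.8) or with 1 record kept of each group sharing 50 bases (6.67%, 3.42 to 12.6). For U runs it did not do so at a minimum of 12 bases (7.35%, 5.20 to 10.3) or with 1 other base allowed (8.91%, 6.38 to 12.3). The 30 nt before A runs held 32.8% A, against 29.5% over all records, and the motif itself is rich in A.

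The bases beside the runs were compared on the complement for U. The base directly before an A run was C in 64, U in 60 and G in 40 of the 164 A runs that do not open their record, and the base directly after was G in 79, C in 67 and U in 19. After a U run came A in 59, G in 56 and C in 30, which are U, C and G on the complement. Before a U run came C in 81, G in 37 and A in 28, which are G, C and U on the complement. The base that follows an A run, and the complement of the base that precedes a U run, was thus most often G. The 10 nt after A runs held 36.9% A and 20.1% U, and the 10 nt before U runs held 34.2% U and 21.4% A.

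Some A runs followed a sequence that occurs in many records. Of the stretches of 15 bases within 30 nt before A runs, CUACACAGAGAAACC and the overlapping GCUACACAGAGAAAC were the most frequent, each present there in 7 of the 164 records (4.27%, 2.08 to 8.55). The first of them by letters was followed further. CUACACAGAGAAACC or its complement occurred in 1.08% of all records, in 71 as written and in 17 as its complement. These letters belong, as background, to the 3′ part of the B1 element, a short interspersed retrotransposon of rodents. After U runs the complement of this stretch was found in 1 of 141 records. After U runs no stretch was found in more than 3 records. AAAAGGCUCUGUGUU, one of several tied at that number, was present in 3 records that share 1 run site, TCONS_00161200, TCONS_00162033 and TCONS_00167497, and in no others. In the following sequences the stretch is in capitals and the run in lower case, to show the few bases that separate them. The first 4 are A runs and the last is the U run with the complement.
TCONS_00036995: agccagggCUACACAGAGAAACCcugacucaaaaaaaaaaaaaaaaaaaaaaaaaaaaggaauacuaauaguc
TCONS_00128861: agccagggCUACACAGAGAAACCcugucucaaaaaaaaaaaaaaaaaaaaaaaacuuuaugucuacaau
TCONS_00046981: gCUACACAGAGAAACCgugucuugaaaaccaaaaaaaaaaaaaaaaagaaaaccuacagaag
TCONS_00180733: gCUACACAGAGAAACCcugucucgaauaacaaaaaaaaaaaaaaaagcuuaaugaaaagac
TCONS_00113045: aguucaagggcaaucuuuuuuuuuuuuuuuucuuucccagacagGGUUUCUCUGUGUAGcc

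In these 7 records the stretch ended 7 to 14 bases before the A run, which had 16 to 37 bases. The longest A run of the series, in TCONS_00032960, was among them, with 10 bases between stretch and run. TCONS_00180344 and TCONS_00183539 carried the same site, so the 7 records hold 6 separate runs. With 1 record kept of each group sharing 50 bases, the stretch was found in 2 of 119 records (1.68%, 0.462 to 5.92). A wider search took every stretch of 20 bases that contains all 4 bases and occurs in at least 20 records on either strand, which gave 290 stretches. The most frequent of them, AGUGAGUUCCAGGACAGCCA, was in 81 records. Such a stretch was present in the 100 nt before 24 of the 165 A runs (14.55%, 9.97 to 20.7) and in the 100 nt after 1 of them (0.606%, 0.107 to 3.35). For U runs it was present before 2 of the 146 (1.37%, 0.376 to 4.86) and after 5 (3.42%, 1.47 to 7.77). All windows of 100 nt held one in 0.792%. For runs of 10 to 14 bases the shares were 6.08% before and 1.45% after A runs, and 1.08% before and 1.75% after U runs. Anywhere in the record, such a stretch was held by 24.4% of records with an A run (18.5 to 31.5), 19.1% with a U run (13.5 to 26.4) and 9.21% without (8.59 to 9.88). Counting 1 record for each group sharing 50 bases, which also merges records that share such a repeat, left 8 of 120 A runs (6.67%) with one before the run (3.42 to 12.6) and 0 of 120 with one after it. The records with a run were also the longer ones, as given at the end, and the part of length in these shares was not tested.

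The predicted structures set A and U runs apart. The search for runs did not use them, but they are predicted from the same sequences and are no independent measurement. In the dot-bracket structures, 278 of the 2993 bases in A runs were paired (9.29%), against 1039 of the 2632 bases in U runs (39.5%). Over the runs, the median share of paired bases was 0% for A (95% interval of the median 0 to 3.85, n = 165) and 40% for U (25 to 46.7, n = 146). No base was paired in 93 A runs (56.4%, Wilson 95% interval 48.7 to 63.7) and in 29 U runs (19.9%, 14.2 to 27.1), and these intervals do not overlap. At least 50% of the bases were paired in 8 A runs (4.85%, 2.48 to 9.27) and in 58 U runs (39.7%, 32.2 to 47.8). Every base was paired in 9 U runs and in 0 A runs.

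Both bases were less often paired inside the runs than elsewhere in the same records. Outside the runs, 44.8% of the A in records with an A run and 57.7% of the U in records with a U run were paired, close to the 46.4% and 58.5% over all records. Pairing of A went from 29.5% of bases in runs of 5 to 17.6% in runs of 12 to 14, 8.20% in runs of 15 to 16 and 10.6% in runs of 20 or more. For U it went from 52.7% in runs of 5 to 46.6% in runs of 12 to 14, 43.4% in runs of 15 to 16 and 31.8% in runs of 20 or more. The share of A runs with no paired base was 41.6% at 5 bases, 39.5% at 12 to 14 and 60% at 15 to 16. That of U runs was 22.6%, 15.3% and 20.3%, so it was no higher at 15 to 16 bases than at 5.

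**Figure D4:**
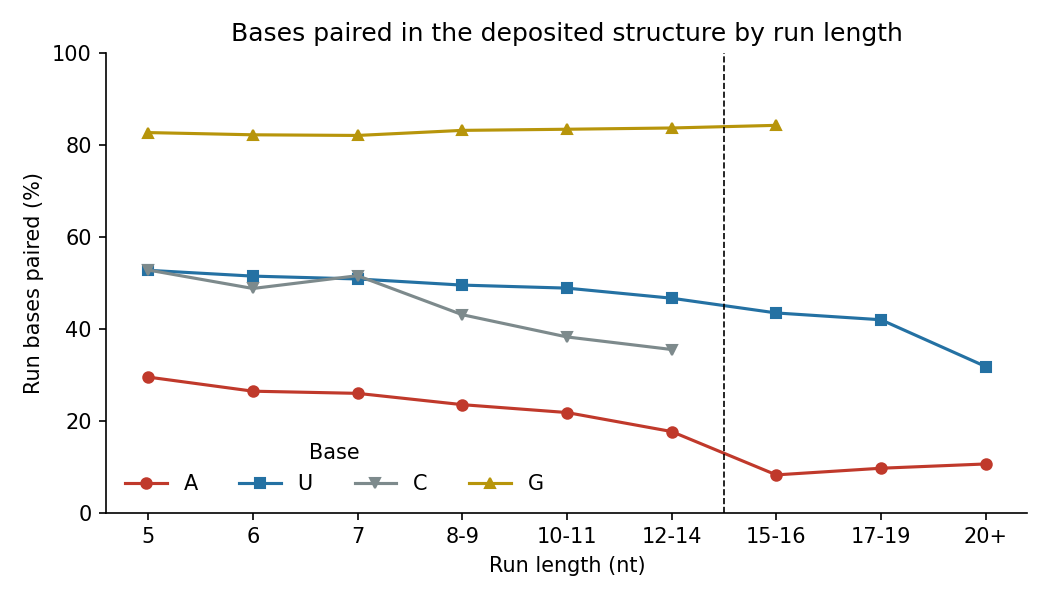
Share of run bases that are paired in the deposited structures (percent) by run length in nt, for A, U, C and G; groups of fewer than 5 runs are left out and the dashed line marks the limit of 15 bases. A runs lie lowest at every length, falling from 29.5% at 5 nt to 10.6% at 20 nt or more, U runs fall from 52.7% to 31.8%, and G runs stay above 80%.

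Pairing was lowest in the middle of the runs. At the first and last base of A runs, 25.5% and 26.1% were paired, and at the eighth base from the 5′ side 4.85%. The bases directly before and after A runs were paired in 46.3% and 44.8%. Within 10 nt the flanks of A runs were paired to 50.8% before and 53.3% after the run, and those of U runs to 60.9% and 60.1%, against 58.9% of all bases in all records. In U runs the first and last base were paired in 51.4% and 50% of runs, and the eighth base in 34.2%.

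**Figure D5:**
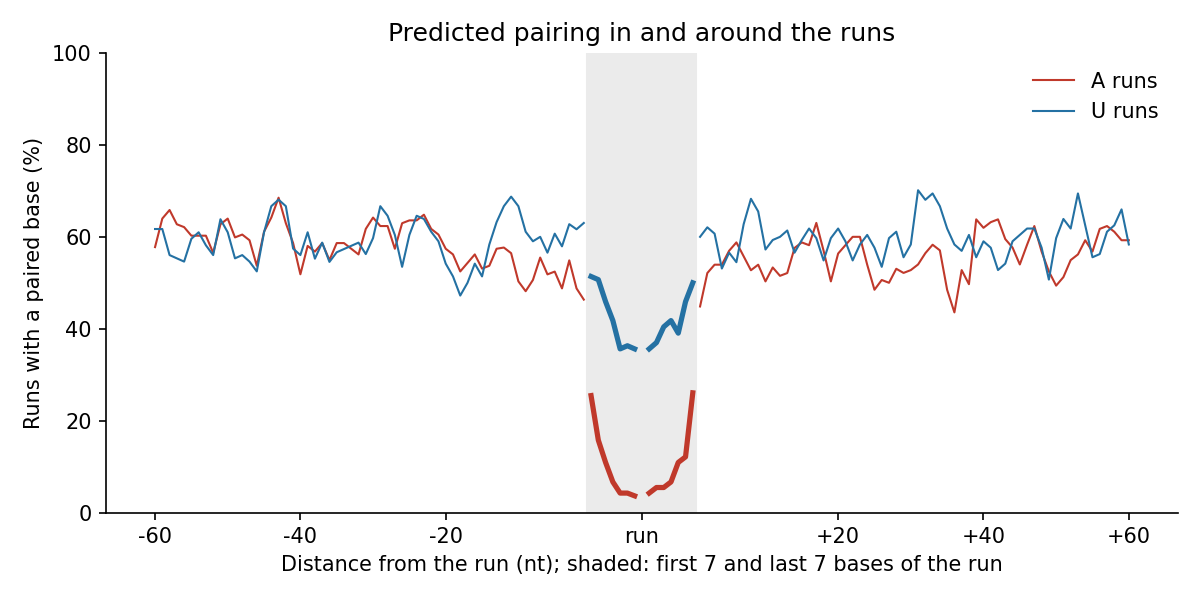
Percent of runs with a paired base at each position from 60 nt before to 60 nt after the run; the shaded part shows the first 7 and the last 7 bases of the run, since runs differ in length. The A curve drops from 46.3% directly before the run to 3.64% at the seventh run base and returns to 44.8% directly after, and the U curve stays above 30% within the run.

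All 278 paired bases of A runs faced U. Of the 1039 paired bases of U runs, 765 (73.6%) faced A and 274 (26.4%) faced G. A stack of at least 5 successive A-U pairs was present in 12 A runs (7.27%, 4.21 to 12.3) and in 28 U runs (19.2%, 13.6 to 26.3). Uninterrupted stacks of A with U were rare at greater length, with at least 10 pairs in 3 A runs and in 2 U runs. The longest stack for A runs had 14 pairs in TCONS_00023054, where a run of 28 A faced a stretch of 14 U, with 91 bases between the paired parts. The longest for U runs also had 14 pairs, in TCONS_00200513, where the run of 15 U faced 14 A lying 544 bases downstream. The partner stretches of these records are shown with the paired letters in capitals.
TCONS_00023054, partner of the A run: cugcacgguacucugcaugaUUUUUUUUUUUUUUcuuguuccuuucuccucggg
TCONS_00200513, partner of the U run: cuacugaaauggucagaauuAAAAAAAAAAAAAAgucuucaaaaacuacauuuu

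The A runs with the highest share of paired bases were those of TCONS_00013889 (13 of 15), TCONS_00225310 (16 of 19) and TCONS_00066637 (16 of 21). Among the 3 longest A runs, 23 of 31 bases were paired in TCONS_00183803, 3 of 37 in TCONS_00032960 and 0 of 32 in TCONS_00149974. The longest U runs were nearly free of pairs, with 1 of 38 bases paired in TCONS_00155633, 1 of 38 in TCONS_00234733 and 0 of 34 in TCONS_00199094. Of the runs that touched an end, the A run of TCONS_00138941 had 7 of 18 bases paired and the U run of TCONS_00229430 had 0 of 19. The longest record of the set, TCONS_00023311 with 7174 nt, had 9 of the 16 bases of its U run paired.

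Uridine pairs only with A and G, so the partners of a fully paired U run are purines, and in all 9 both occurred. In 8 of the 9, the partners lay within a single stretch of 15 to 42 nt, and 4 to 8 of the pairs in each were with G. The stretch of 42 nt, in TCONS_00170873, also held unpaired bases. In TCONS_00252138 the partners were spread over 384 nt. TCONS_00198637 had the first of its runs, with 17 U, paired to an alternating AG stretch 381 bases away, with 9 A and 8 G as partners. In TCONS_00121259 the run of 15 U faced 9 A and 6 G, and in TCONS_00155448, whose run lies 2 bases from the 5′ end, it faced 8 A and 7 G at the other end of the record, 1209 bases away. TCONS_00198993 and TCONS_00200567 carry the same run site and gave the same partner. These partner stretches are shown with paired letters in capitals, to show the mixture of A and G.
TCONS_00198637, partner: AGAGAGAGAGAGAGAGA
TCONS_00121259, partner: AGGAAAGAGAAAAGG
TCONS_00155448, partner: GAAAGGGGAAGAGAA
TCONS_00132434, partner: AAAGAGAAAAGAAGA
TCONS_00142565, partner: AAAGAGAGAGAGAAA
TCONS_00198993, partner: AAAcAAGAGAAGAGAA

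Records with a run were longer than the others. Median length was 1407 nt with an A run (95% interval of the median 1252 to 1485) and 1447 nt with a U run (1350 to 1696), against 1109 nt for the 7738 records without (1094 to 1122). A longer record offers more places for a run, and the part of this in the difference was not tested. In records of 205 to 849, 850 to 1117, 1118 to 1489 and 1490 to 10118 nt, which divide the set into 4 classes of about equal number, the share with an A run was 1.29%, 1.30%, 2.19% and 3.39%, and the share with a U run was 0.546%, 1.54%, 1.49% and 3.44%. Per Mb of sequence there were 19.6, 13.2, 17.1 and 15.1 A runs in the same classes, with no steady course, and 15.8 over all records. The U runs per Mb were 8.29 (from 11 runs), 16.2, 12.8 and 15.3, and 13.96 over all records.

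Base composition and folding energy were compared over whole records. Median GC content was 41.6% with an A run (40.2 to 42.7), 41.1% with a U run (39.6 to 41.9) and 41.6% without (41.5 to 41.8). With the runs removed, records with an A run had a median of 30.3% A and 27.6% U, and records with a U run had 28.9% A and 29.7% U, against 29.3% and 29.0% in records without. The deposited free energy had a median of -27.6 kcal/mol per 100 nt with an A run (-28.5 to -27.0), -27.9 with a U run (-29.0 to -27.3) and -27.9 without (-28.0 to -27.7). After a linear fit on GC content over all records, the median residual was -0.31 kcal/mol per 100 nt with an A run (-0.57 to -0.09), -0.70 with a U run (-1.09 to -0.47) and -0.19 without (-0.24 to -0.14). The interval for records with a U run lies below that for records without, while the interval for records with an A run overlaps it. Records whose longest U run had 10 to 14 bases, and which held no run of 15, had a median residual of -0.48 (-0.59 to -0.35). For records whose longest A run had 10 to 14 bases it was -0.35 (-0.48 to -0.20). The part of record length in these residuals was not tested. The median share of paired bases over the whole record was 58.3% with an A run, 59.1% with a U run and 58.9% without.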

How the data were processed

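The authors removed ribosomal RNA, sequenced paired-end libraries and aligned them to the mouse. TopHat2 and mm10 are named in the submitters' processing notes. They kept transcripts longer than 200 bp without coding potential or a match to known RNAs. The assembler and folding program are not given in the sources used here. The deposited records hold 3 lines each: identifier, RNA sequence, and dot-bracket structure with its free energy in kcal/mol. Genome positions were not used here. From these, uninterrupted runs of at least 15 A or U were located, with distances counted in bases between run and end. Shared sequence was an exact 50-base stretch on either strand. Shares carry Wilson 95% intervals and medians order-statistic intervals. Bases within a run are not independent, so no interval is given for shares of bases. Records at most 1500 nt long were folded again with RNAfold 2.7.2. Python 3.11.15, numpy 2.4.6, scipy 1.17.1 and matplotlib 3.10.9 were used, and the run search was tested on simulated sequences. The set and its measures were chosen with earlier results of these data known. The stretches of 20 bases found in many records, the run sites, the partner stretches and the comparison of length classes were chosen after seeing the data. The records named are those with the 3 longest A and U runs, the 3 of each nearest to either end, the largest sum of A and U run, the longest record, the most runs and the longest stack, and the study's 20 tabulated transcripts. Others named were chosen after their values were seen.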

Additional observations from a re-analysis of the deposited data

How the results depend on the processing

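Of 100 values under the alternatives set for this set of records, 64 stayed within the interval of the reported value or, for counts, within 1.5 times of it, and 36 did not. For shares and medians, the interval was that of the reported value, which for shares of paired bases treats the bases of a run as independent and is therefore too narrow. With a minimum of 12 bases, 394 records had an A run, 389 a U run and 29 both, and 13.5% of A run bases and 43.5% of U run bases were paired. With a minimum of 20 bases, 41 had an A run, 33 a U run and 0 both, 10.6% and 31.8% of run bases were paired, the median position of A runs was 57.9%, 0% of A runs lay within 100 nt of either the 3′ or the 5′ end, 3.03% of U runs lay near the 5′ end, AAUAAA preceded 2.44% of A runs, and 0% of U runs had UUUAUU or the leading stretch after them. With 1 other base allowed inside a run, 381 records had an A run, 341 a U run and 20 both, 13.9% and 43.6% of bases were paired, 10.6% of A runs lay near the 5′ end and 11.1% of U runs near the 3′ end (8.29 to 14.8, above the 7.74% of even placement), and AAUAAA preceded 11.3% of A runs. With 1 record kept of each group sharing 50 bases, 10.4% of A run bases were paired and 1.68% of records with an A run held the leading stretch. Groups sharing 50 bases can be chained by common repeats, and the largest group with a run held 412 records. Folding again the records of at most 1500 nt gave 8.08% paired for A and 35.0% for U, where the deposited structures of the same records gave 8.81% and 34.2%. With an end window of 50 nt, 1.82% of A runs lay near the 3′ end and 2.42% near the 5′ end, and 1.37% of U runs near the 3′ end, and with 200 nt the shares were 9.70% and 10.9% for A and 15.8% and 15.1% for U, as wider windows hold more. In each of these alternatives that recomputed pairing, U run bases were paired more often than A run bases. No paired analysis was possible because the records carry no value per library. The depth of each library is unknown from these records.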

Other observations

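Runs of at least 15 C or G were few but differed in predicted pairing. The 6 C runs had 39.6% of their bases paired and the 9 G runs had 85.6%, and 0 of the 9 G runs was free of pairs. None of these 15 runs lay within 100 nt of an end of its record. With so few runs these are values only.

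A direct repeat flanking an insertion is a known mark of retrotransposition. The 10 bases directly after an A run recurred exactly in the 500 nt before it for 4 of 165 A runs (2.42%, Wilson 95% interval 0.947 to 6.07), and the 10 bases before it recurred in the 500 nt after it in 0 of 163. For U runs the mirrored counts were 1 of 144 for the bases before the run and 0 of 145 for the bases after it. The repeats were GAAUUGAACU in TCONS_00008085, UGUGUUCCAC in TCONS_00026756, GAACCCGAAC in TCONS_00152066, UUAUUUAUUU in TCONS_00215894 and, for a U run, CUCUAGACUC in TCONS_00251642. The repeat in TCONS_00026756 began only 13 nt before its run, and that in TCONS_00215894 consists of U and A only. The share at other positions of the records was not computed, so whether these counts exceed it was not tested. This search and the records named here were chosen after seeing the data.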
